A study of Mus musculus with 24 samples.

Results

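Glycolysis turns glucose into pyruvate in the cytosol, and its genes, together with those that respond to low oxygen, were followed here as 1 group of 33 genes in bone marrow-derived dendritic cells (BMDCs) lacking tristetraprolin (TTP). The members were chosen by name, from textbook knowledge of the pathways, with earlier results of these data known. They were 33 of the 23394 genes in the deposited tables. Only 23 of the 33 reached the mean of 0.5 FPKM that was required of a gene for the main test, as did 8350 of the 23394 genes. FPKM is the number of reads per kilobase of gene length, scaled for the size of the library. The other 10 members were Slc2a3, Hk1, Pfkl, Pfkm, Pfkfb4, Pdk1, Slc16a1, Egln3, P4ha2 and Ankrd37, and they were tested from their reads. Among the 23, Hk2, Hk3 and Bnip3 reached the minimum only through the TTP-/- libraries, where they averaged 0.848, 1.01 and 0.68 FPKM, against 0.48, 0.249 and 0.346 FPKM in WT libraries. Adm reached it only through the WT libraries, with 0.419 FPKM in TTP-/- libraries against 0.775 FPKM in WT libraries.

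The cells were TTP-/- BMDCs and WT BMDCs, grown with the cytokine GM-CSF from the bone marrow of C57BL/6 mice aged 9 to 12 weeks. Each genotype was stimulated with 10 ng/ml lipopolysaccharide (LPS), a component of the bacterial wall, for 3, 6 or 9 h, or was left without LPS (0 h), with 3 replicates in each of the 8 groups. TTP, the product of Zfp36, is an RNA-binding protein that speeds the decay of mRNAs with AU-rich stretches in the 3′ UTR. The marrow came from TTP-/- mice, so these cells had developed without TTP before the culture began. The study calls the 24 libraries biological triplicates without tying them to single mice, and p-values measure the spread between these libraries only.

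Glucose enters the cell through transporters of the Slc2a family and is trapped by hexokinases. The enzymes that follow, up to pyruvate kinase, then turn it into pyruvate with a net gain of ATP. Pyruvate is reduced by lactate dehydrogenase and the lactate leaves through monocarboxylate transporters. The transcription factor HIF-1α drives most of these genes: in normal oxygen it is hydroxylated by the prolyl hydroxylases Egln1 and Egln3 and destroyed, whereas low oxygen, or stimulation of myeloid cells with LPS, lets it accumulate. In LPS-stimulated dendritic cells and macrophages a rise in glycolysis is a well-known early response.

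HIF-1 binds DNA at a short core, and the core was searched for in the promoters of the members. RefSeq promoter windows (GRCm38.p6, 250 bases before to 50 bases after the start site) matched 31 of the 33 members and gave 45 windows. Slc2a3 and Ndrg1 had none. The motif letters ACGTG and GCGTG, read on both strands, were present in 37 of the 45 windows (82.2%) and in 43.8% of all 32851 windows in the table. In 28 of the 45 (62.2%) they occurred at least 2 times, against 20.6% of all windows. The members' windows were also richer in G and C, with a median of 62.3% against 52.7%. Since the members were chosen by name from pathways known for control by HIF-1, a high share was built into the choice. Windows of 1 gene can also overlap and share their matches, as for Eno1 and Aldoa. Within the sequence CACGTG, which is also the E-box that other factors bind, the motif is counted on both strands. Windows of 4 members are shown, with the matches in capitals: Bnip3, Slc16a3 and Ldha, which were higher in TTP-/- cells at several times, and Adm, which was lower before LPS. A match is a description of the letters and was not tested as a binding site.
Bnip3: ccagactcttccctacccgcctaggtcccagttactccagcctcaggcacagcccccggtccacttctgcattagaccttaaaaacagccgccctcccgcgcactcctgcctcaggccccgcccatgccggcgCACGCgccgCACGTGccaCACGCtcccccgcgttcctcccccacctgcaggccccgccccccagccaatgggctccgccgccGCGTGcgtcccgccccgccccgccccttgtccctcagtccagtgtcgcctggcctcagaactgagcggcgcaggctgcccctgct
Slc16a3: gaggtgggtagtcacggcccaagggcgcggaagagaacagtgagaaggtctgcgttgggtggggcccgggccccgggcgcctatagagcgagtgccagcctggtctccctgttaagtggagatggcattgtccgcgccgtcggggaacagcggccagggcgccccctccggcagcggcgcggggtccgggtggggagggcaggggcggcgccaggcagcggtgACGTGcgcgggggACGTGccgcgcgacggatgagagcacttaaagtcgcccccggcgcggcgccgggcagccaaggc
Ldha: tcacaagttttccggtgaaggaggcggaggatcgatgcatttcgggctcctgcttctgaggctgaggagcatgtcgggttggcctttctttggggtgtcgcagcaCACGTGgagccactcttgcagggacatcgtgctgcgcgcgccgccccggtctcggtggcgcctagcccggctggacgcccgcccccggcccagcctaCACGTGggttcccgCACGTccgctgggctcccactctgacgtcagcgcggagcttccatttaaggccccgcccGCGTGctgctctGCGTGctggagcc
Adm: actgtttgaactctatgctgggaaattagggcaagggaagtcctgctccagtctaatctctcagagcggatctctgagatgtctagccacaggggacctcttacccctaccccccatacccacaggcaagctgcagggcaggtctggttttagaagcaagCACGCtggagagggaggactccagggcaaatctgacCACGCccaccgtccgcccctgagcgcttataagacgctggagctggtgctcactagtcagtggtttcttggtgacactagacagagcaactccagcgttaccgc
They lie at chr7:138909457-138909756 (minus strand, 5 matches), chr11:120948817-120949116 (plus strand, 2 matches), chr7:46845554-46845853 (plus strand, 7 matches) and chr7:110627407-110627706 (plus strand, 2 matches). Another Ldha window, at chr7:46846832-46847131 (plus strand), held 2 matches and is not shown.

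The heptamer TATTTAT, the DNA form of the AU-rich element that TTP is known to prefer, was then counted in the longest annotated 3′ UTR of each gene (GENCODE M21, GRCm38). It was found in 14 of the 33 members (42.4%), against 30.2% of the 12011 protein-coding genes that averaged 10 reads or more. The median 3′ UTR was 1263 bases long in the members and 1174 bases in all these genes. Hif1a and Vegfa each held 3, and Slc2a3, Hk2, Pfkp and Pfkfb3 held 2. A single copy was present in Slc2a1, Pfkm, Pgk1, Pdk1, Slc16a3, Egln3, P4ha1 and Ndrg1. Aldoa, Aldoc, Eno1, Pkm, Ldha, Bnip3, Slc16a1, Hk3 and Adm held none. The heptamer, in capitals with 10 bases on each side, is shown for the transporter Slc2a3, for Egln3 and Vegfa, and for Ndrg1, the member that was lower in TTP-/- cells at every time.
Slc2a3: acttgagtttTATTTATtttatcttca
Egln3: gtcatgtcctTATTTATtttgtttatt
Vegfa: ccgtagtacaTATTTATttttaaacag
Ndrg1: aagatgtttgTATTTATttccagacca
They lie on the minus strand at chr6:122729463-122729489, chr12:54179141-54179167, chr17:46017064-46017090 and chr15:66929340-66929366. Members with and without the heptamer are found among those that were higher in TTP-/- cells, and no test relates the heptamer to the differences below.

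The libraries held 19966708 to 25553546 reads assigned to genes. Zfp36 itself was lower in every TTP-/- library than in any WT library of the same time. It was at 87.4 to 102 FPKM in TTP-/- cells against 201 to 213 FPKM in WT cells at 0 h, and at 155 to 162 FPKM against 198 to 234 FPKM at 9 h. The remaining reads come from the counted gene and do not show protein. Lists of cell markers differed between the genotypes, and they bear on every comparison of genotypes that follows. The summed level of 17 dendritic cell markers was 1047 to 1650 FPKM in TTP-/- libraries and 1851 to 2626 FPKM in WT libraries, and 9 to 13 of the 16 tested were lower in TTP-/- cells at each time. The summed level of 18 neutrophil markers was 603 to 2028 FPKM in TTP-/- libraries and 68.5 to 295 FPKM in WT libraries, with 14 or 15 of 15 higher. All 8 tested eosinophil, basophil and mast cell markers were higher at each time, as were 10 to 15 of 15 cell cycle genes and, at 0, 6 and 9 h, 8 of 10 macrophage markers. Eosinophil, basophil and mast cell markers summed to 121 to 229 FPKM in TTP-/- libraries against 15.7 to 39.8 FPKM in WT libraries, and macrophage markers to 231 to 2053 FPKM against 81.2 to 625 FPKM. At 3 h only 1 of the 10 macrophage markers was higher and 1 was lower, and they summed to 354 to 484 FPKM in TTP-/- libraries, against 382 FPKM in WT replicate 1, 141 FPKM in WT replicate 2 and 104 FPKM in WT replicate 3. Cell cycle genes summed to 22.7 to 169 FPKM in TTP-/- libraries against 14.2 to 40.0 FPKM in WT libraries, and B cell and plasma cell markers, of which 3 or 4 of 4 were higher, to 46.7 to 105 FPKM against 3.55 to 11.1 FPKM. In WT cells at 6 h the neutrophil marker Fcnb and the dendritic cell marker Cd209a had no read. The B cell marker Pax5 had no read in either genotype at 0 h and at 9 h. The part of these cells in the members' differences was not tested. In bulk RNA, more cells of a type and more RNA per cell cannot be told apart.

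Before LPS, 10 of the 23 tested members were higher and 3 were lower in TTP-/- cells than in WT cells (limma on log2(FPKM + 0.1), Benjamini-Hochberg adjusted p up to 0.05). Of all genes tested, 13.9% were higher and 15.5% lower. The median log2 change was 0.55 over the members and -0.04 over all genes. The higher members came from sugar entry (Slc2a1, Hk2, Hk3), from the lower pathway (Aldoc, Tpi1, Eno1, Pkm) and from lactate handling (Ldha, Slc16a3), and Bnip3 joined them. Hk2, Hk3 and Bnip3 were tested only because of their level in TTP-/- libraries, and Adm only because of its level in WT libraries. The lower members in this test, Vegfa, Ndrg1 and Adm, all belonged to the hypoxia-response genes outside glycolysis. Pfkfb3 and Pfkp, of the phosphofructokinase step, also lay below WT cells without overlap (ratio of means 0.714 and 0.818) but did not pass. The test on reads described below (voom) called 4 members lower at 0 h, none of them below the minimum. Pfkfb3 or Pfkp, or both, were therefore among these 4, so the lower side was not confined to genes outside glycolysis. Leaving out WT replicate 1 or WT replicate 3 left 5 or 6 higher members, with Eno1, Pkm, Slc16a3 and Tpi1 lost from both.

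After LPS the higher members outnumbered the lower at each time. At 3 h, 8 were higher and 1 lower, where 11.3% of all genes lay higher and 14.6% lay lower. At 6 h the counts were 9 and 1, beside 10.4% and 6.7% of all genes. At 9 h they were 14 and 1, beside 17.7% and 19.1% of all genes. The members' median log2 change was 0.45, 0.39 and 0.55 at 3, 6 and 9 h, and that of all genes was -0.05, -0.06 and -0.05. Rescaling the values to TPM moved the share of higher genes among all called genes from 47.2%, 43.5%, 60.9% and 48.1% at 0, 3, 6 and 9 h to 61.5%, 59.5%, 78.4% and 67.2%, and the members called were then 11, 10, 10 and 16 higher and 3, 1, 1 and 1 lower. Higher in TTP-/- cells, 5 members passed at all 4 times, namely Hk2, Aldoc, Eno1, Slc16a3 and Bnip3, of which Hk2 and Bnip3 were tested only because of their level in TTP-/- libraries, and Ndrg1 passed at all 4 in the lower direction. In this test Pfkp, Gapdh, Pgk1 and Egln1 passed at none, nor did Gpi1 without the replicate block described next.

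The 3 h count rested on single libraries. It was 15 (14 higher) without WT replicate 1, the highest WT library for Slc2a1, Aldoc, Eno1 and Slc16a3, 3 (2 higher) without any 1 of the 3 TTP-/- replicates or without WT replicate 2, and 5 (4 higher) without WT replicate 3. WT replicate 1 also had the highest macrophage marker sum of the 3 WT libraries, as given above, and the part of this in the count was not tested. Bnip3, Vegfa and Ndrg1 passed in each of these fits, whereas Hk2, Pfkfb3, Aldoc and Eno1 passed only with all 6 libraries or without WT replicate 1. The labels do not say that replicate numbers pair the libraries. At 6 h the deviations of same-numbered libraries from their group means correlated at 0.21 to 0.50, against -0.60 to 0.43 at 0 h. A fit with the replicate as a block called 12 higher and 1 lower at 6 h. It added Gpi1 (adjusted p = 0.0273), Aldoa (adjusted p = 0.0101) and Vegfa (adjusted p = 0.0394), all higher. Without TTP-/- replicate 2 the 6 h count was 7, all higher, with Pkm, Ldha and Ndrg1 lost.

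**Figure D1:**
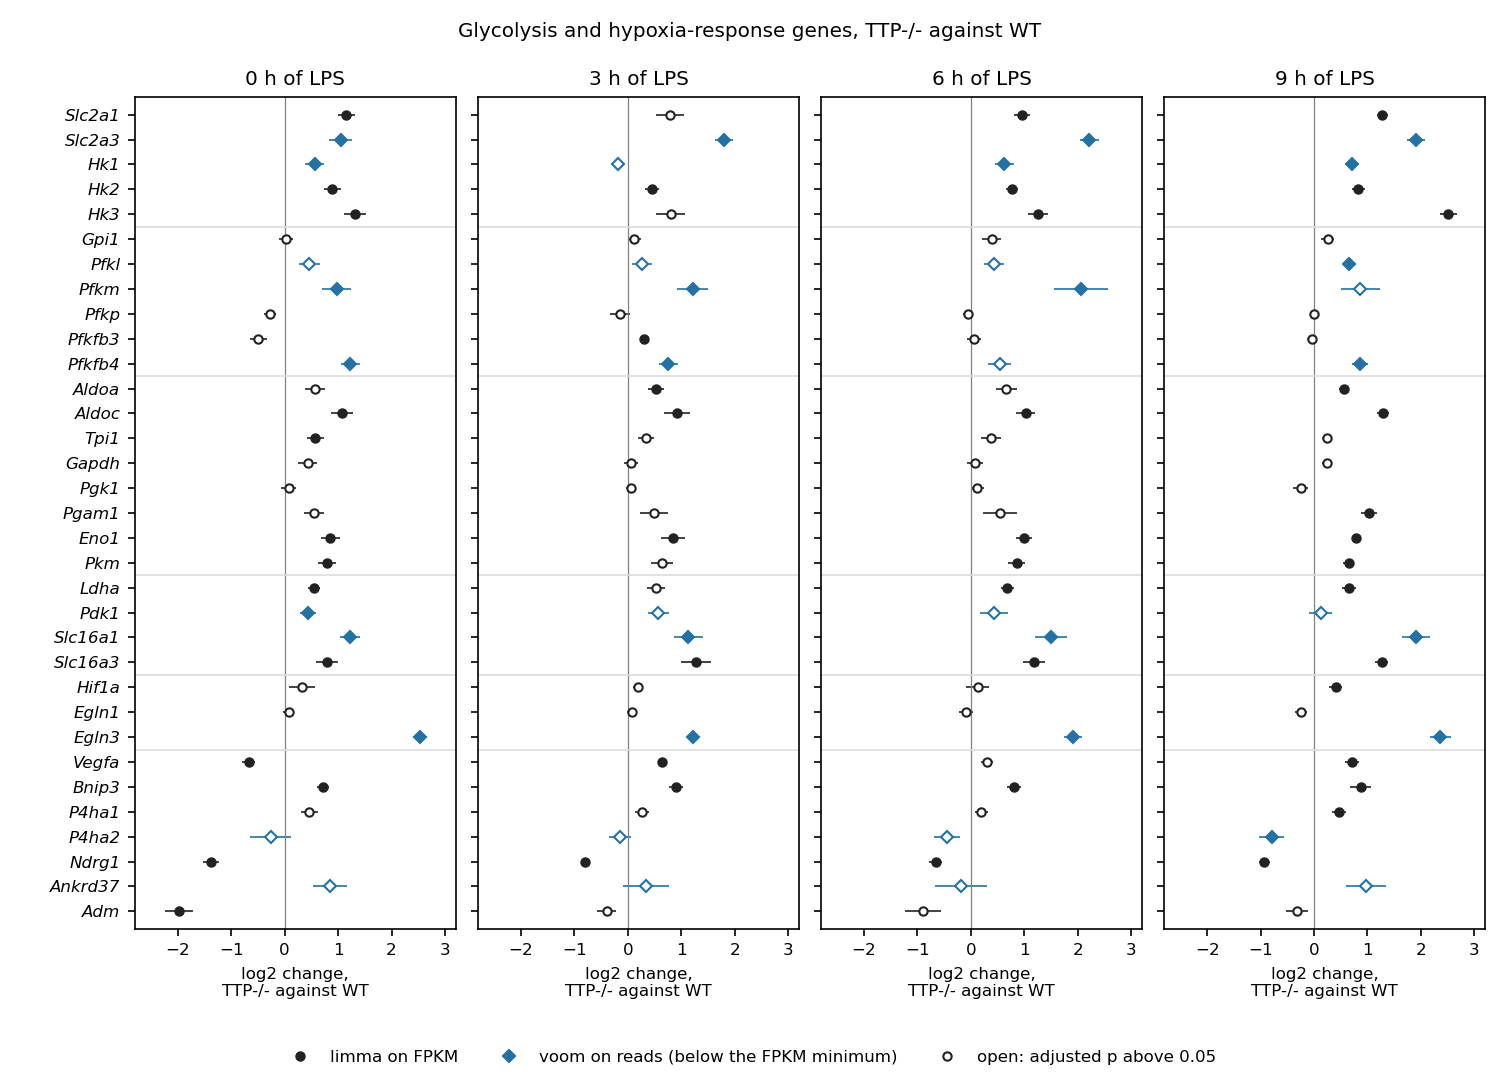
Log2 change of TTP-/- against WT cells (x axis, ± SE) for the 33 members (y axis, grouped by role) at 0, 3, 6 and 9 h after LPS, from 3 libraries per group. Circles are limma on FPKM for 23 members and diamonds voom on reads for the 10 below the minimum; filled symbols passed the threshold, and most filled symbols lie right of 0, with Ndrg1 left of it in every panel.

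Of the 3 tested transcripts for glucose uptake and hexokinases, 3, 1, 3 and 3 were higher in TTP-/- cells at 0, 3, 6 and 9 h. The shares of all genes were 13.9%, 11.3%, 10.4% and 17.7%. Hk2 and Hk3 reached the minimum only through the TTP-/- libraries, so this count was partly set by the filter. Hk1 and Slc2a3, of the same group, were below the minimum. Slc2a1 encodes GLUT1, the main glucose transporter of activated immune cells. At 0 h it was at 4.86, 3.91 and 4.72 FPKM in TTP-/- cells, against 2.09, 2.25 and 1.58 FPKM in WT cells (log2 change 1.15 ± 0.16, adjusted p = 0.00246). At 3 h the values were 2.41, 2.31 and 2.39 FPKM in TTP-/- cells and 2.09, 1.2 and 0.932 FPKM in WT cells, where the 3 TTP-/- libraries lay above WT replicate 1 by little and the test was missed (log2 change 0.79 ± 0.26, adjusted p = 0.0691). The groups stood well apart at 6 h, with 1.55, 1.72 and 2.02 FPKM in TTP-/- cells, against 0.72, 0.907 and 0.952 FPKM in WT cells, and at 9 h, with 2.17, 2.52 and 2.18 FPKM in TTP-/- cells, against 0.80, 0.972 and 0.89 FPKM in WT cells (log2 change 0.96 and 1.28). WT replicate 1 stood apart from the other WT libraries at 3 h, and the 2 genotypes did not overlap at any of the 4 times.

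Hexokinases phosphorylate glucose and so keep it in the cell. Hk2, the inducible form, was at 0.617, 0.518 and 0.565 FPKM in TTP-/- cells, against 0.302, 0.279 and 0.202 FPKM in WT cells at 0 h, and at 0.905, 1.06 and 0.894 FPKM in TTP-/- cells, against 0.449, 0.574 and 0.455 FPKM in WT cells at 9 h. It passed at every time, with log2 changes of 0.89, 0.45, 0.77 and 0.83, the 3 h change being the smallest and lost when any 1 library other than WT replicate 1 was left out. Hk3, a form typical of myeloid cells, was at 0.742, 0.688 and 1.02 FPKM in TTP-/- cells, against 0.225, 0.357 and 0.225 FPKM in WT cells at 0 h and at 2.13, 2.5 and 1.74 FPKM in TTP-/- cells, against 0.242, 0.341 and 0.28 FPKM in WT cells at 9 h. Its 9 h log2 change was 2.51 ± 0.16, adjusted p = 4.12e-05, in a test it entered only through its level in TTP-/- libraries. All 3 TTP-/- libraries were then at least 5 times as high for Hk3 as the highest WT library. At 3 h its values were 0.467, 0.485 and 0.35 FPKM in TTP-/- cells and 0.363, 0.146 and 0.147 FPKM in WT cells, the lowest TTP-/- library lying below the highest WT library.

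The first committed step of glycolysis is that of phosphofructokinase, and its tested genes passed at few times. Gpi1, which makes the substrate of that step, and Pfkp, the platelet-type subunit, passed at no time without the block, with log2 changes from 0.03 to 0.39 and from -0.27 to 0.01. With the replicate block Gpi1 was higher at 6 h (adjusted p = 0.0273). Pfkfb3 makes fructose 2,6-bisphosphate, the strongest activator of phosphofructokinase, and passed only at 3 h. Its values there were 9.24, 10.3 and 9.61 FPKM in TTP-/- cells, against 7.51, 8.13 and 7.95 FPKM in WT cells (log2 change 0.30 ± 0.08, adjusted p = 0.033). The 3 h call of Pfkfb3 was lost with the replicate block (adjusted p = 0.0687) and in 1 fit of the 24 libraries (adjusted p = 0.066). At 0 h it lay on the other side, at 4.55, 5.49 and 6.84 FPKM in TTP-/- cells, against 7.33, 8.2 and 8.11 FPKM in WT cells, without passing (log2 change -0.50 ± 0.16, adjusted p = 0.0573).

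In the lower pathway, aldolase splits the sugar, and the enzymes that follow convert it to pyruvate. Aldoc, an aldolase best known from brain, was at 4.5, 3.03 and 3.9 FPKM in TTP-/- cells, against 1.69, 2.21 and 1.4 FPKM in WT cells at 0 h and at 1.62, 1.35 and 1.26 FPKM in TTP-/- cells, against 0.503, 0.556 and 0.477 FPKM in WT cells at 9 h (log2 change 1.29 ± 0.12, adjusted p = 0.000171). Eno1, an enolase, was at 14.9, 12.1 and 17.1 FPKM in TTP-/- cells, against 7.62, 9.78 and 6.96 FPKM in WT cells at 0 h and at 7.43, 7.61 and 7.91 FPKM in TTP-/- cells, against 4.09, 4.73 and 4.36 FPKM in WT cells at 9 h (log2 change 0.79 ± 0.09, adjusted p = 0.000455). In both genes every TTP-/- library was above every WT library at all 4 times. The 3 h differences of Aldoc and Eno1, 0.92 and 0.85 on the log2 scale, were lost without any 1 library other than WT replicate 1 (adjusted p 0.0745 to 0.125 for Aldoc and 0.0546 to 0.11 for Eno1). The 0 h call of Eno1 was lost without WT replicate 1 or 3 (adjusted p = 0.0514 and 0.0548).

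Pkm encodes pyruvate kinase, which makes pyruvate and ATP. It was higher at 0, 6 and 9 h, at 11.9, 9.94 and 13.7 FPKM in TTP-/- cells, against 6.28, 8.05 and 6.06 FPKM in WT cells at 0 h, at 5.79, 6.83 and 7.44 FPKM in TTP-/- cells and 2.98, 3.9 and 4.1 FPKM in WT cells at 6 h and at 7.24, 6.82 and 7.73 FPKM in TTP-/- cells and 4.48, 5.15 and 4.18 FPKM in WT cells at 9 h. The log2 changes were 0.79, 0.86 and 0.65, and at 3 h it was 0.64 with an adjusted p of 0.0611. The 6 h call of Pkm was lost without TTP-/- replicate 2 or 3 (adjusted p = 0.0549 and 0.0506), and the 0 h call without WT replicate 1 or 3 (adjusted p = 0.0532 and 0.0561). The main aldolase of most tissues, Aldoa, had by far the highest FPKM of the members. It was at 113, 120 and 110 FPKM in TTP-/- cells, against 93.7, 82.6 and 64.1 FPKM in WT cells at 3 h and at 123, 122 and 128 FPKM in TTP-/- cells, against 82.2, 90.4 and 81.5 FPKM in WT cells at 9 h, the times at which it passed without the block (log2 change 0.53 and 0.55; with the block at 6 h, adjusted p = 0.0101), and its 3 h call was lost without any 1 of 4 libraries. Pgam1, which moves the phosphate within phosphoglycerate, passed at 9 h alone, at 2.21, 2.61 and 2.27 FPKM in TTP-/- cells, against 1.02, 1.37 and 0.951 FPKM in WT cells (log2 change 1.03 ± 0.14, adjusted p = 0.0014). The triose isomerase Tpi1 passed at 0 h alone, at 39.6, 31.5 and 41.9 FPKM in TTP-/- cells, against 23.9, 29.6 and 22.4 FPKM in WT cells (log2 change 0.57 ± 0.16, adjusted p = 0.0375), and was lost without any of 4 single libraries.

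Gapdh and Pgk1, the pair of enzymes between aldolase and Pgam1, did not pass at any time. Their log2 changes were 0.06 to 0.43 and -0.25 to 0.12. Gapdh had a mean of only 277 reads per library, against 12832 for Aldoa. Gapdh, Aldoa, Pgk1, Pgam1 and Ldha each have 2 annotated pseudogenes that carry their name, and reads that match several copies may be split or dropped, so their levels are uncertain. Pseudogenes under other names were not counted, so these and other members may have more. Slc2a1, Pfkfb3, Pkm and Hif1a each overlap 1 annotated gene on the same strand, and Slc16a1 overlaps 2, so reads from these neighbours may be counted with them.

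Of the 2 tested transcripts for lactate handling, 2, 1, 2 and 2 were higher in TTP-/- cells over the successive times. The shares of all genes were 13.9%, 11.3%, 10.4% and 17.7%. Pdk1 and Slc16a1, of the same group, were below the minimum. Voom on their reads, described below, called Slc16a1 higher at all 4 times and Pdk1 at 0 h only. Ldha, which reduces pyruvate to lactate, was at 19.7, 16.8 and 16.4 FPKM in TTP-/- cells, against 11.8, 12.2 and 12 FPKM in WT cells at 0 h, at 6.5, 7.65 and 8.35 FPKM in TTP-/- cells and 4.42, 4.68 and 4.72 FPKM in WT cells at 6 h and at 8.03, 9.28 and 8.65 FPKM in TTP-/- cells and 4.95, 6.51 and 4.97 FPKM in WT cells at 9 h. It passed at these times with log2 changes of 0.55, 0.68 and 0.66, and missed at 3 h (0.53, adjusted p = 0.0555). Its 0 h call was lost without WT replicate 1 (adjusted p = 0.0585), and its 6 h call without TTP-/- replicate 2 (adjusted p = 0.0578). Slc16a3 encodes MCT4, the exporter of lactate from glycolytic cells. Its values were 2.48, 1.99 and 3.11 FPKM in TTP-/- cells, against 1.32, 1.79 and 1.16 FPKM in WT cells at 0 h and 1.65, 1.98 and 2.01 FPKM in TTP-/- cells, against 1.14, 0.674 and 0.46 FPKM in WT cells at 3 h. They were 1.29, 1.92 and 1.92 FPKM in TTP-/- cells, against 0.549, 0.687 and 0.851 FPKM in WT cells at 6 h and 1.87, 2.09 and 1.97 FPKM in TTP-/- cells, against 0.688, 0.92 and 0.696 FPKM in WT cells at 9 h. After LPS the log2 changes were 1.28, 1.18 and 1.27, and at 0 h the log2 change was 0.79 ± 0.21, adjusted p = 0.0296, where leaving out TTP-/- replicate 1, WT replicate 1 or WT replicate 3 raised the adjusted p to 0.086 to 0.106. At 3 h the Slc16a3 call was lost without any 1 of the TTP-/- replicates or without WT replicate 2 (adjusted p 0.0532 to 0.070).

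**Figure D2:**
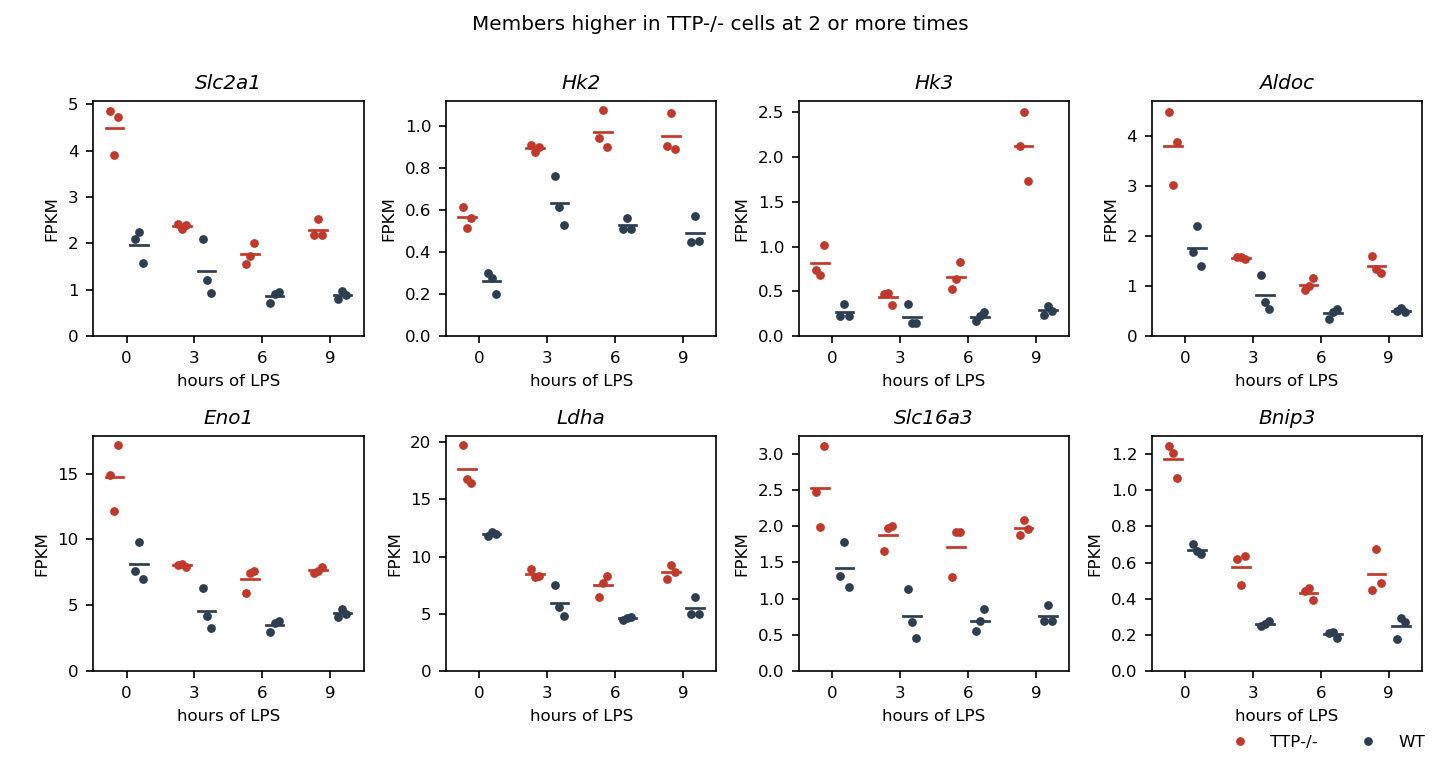
FPKM (y axis, from 0) in each library (points) with group means (lines) for 8 members at 0, 3, 6 and 9 h after LPS (x axis), TTP-/- cells in red and left, WT cells in dark blue and right, 3 libraries each. The tables of the 4 times were scaled separately by the authors, so levels are comparable within a time; at each time the TTP-/- points of Slc2a1, Aldoc, Eno1, Ldha, Slc16a3 and Bnip3 lie above the WT points, and one WT point at 3 h lies high in most panels.

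The genes of HIF-1α and of its main oxygen sensor passed at few times. Hif1a was at 8.92, 8.51 and 5.28 FPKM in TTP-/- cells, against 6.63, 4.57 and 6.77 FPKM in WT cells at 0 h, with the groups overlapping (log2 change 0.32 ± 0.24, adjusted p = 0.376), and overlapped at 6 h too (5.18, 4.55 and 3.83 FPKM in TTP-/- cells and 5.61, 3.63 and 3.35 FPKM in WT cells). It passed at 9 h alone, at 4.06, 5.0 and 3.81 FPKM in TTP-/- cells, against 3.06, 3.05 and 3.48 FPKM in WT cells (log2 change 0.41 ± 0.12, adjusted p = 0.0352). Leaving out any 1 of 4 libraries ended that call: TTP-/- replicate 1 or 2, or WT replicate 1 or 2, gave adjusted p of 0.0686 to 0.098. The replicate block (adjusted p = 0.0701) and quantile normalization (adjusted p = 0.0575) ended it too. So did testing without the FPKM minimum (adjusted p = 0.0688) and 1 fit of the 24 libraries (adjusted p = 0.129). Egln1, the main oxygen sensor, stayed within -0.24 to 0.08 on the log2 scale and passed nowhere.

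Among the other hypoxia-response genes, Bnip3, a mitochondrial protein that promotes mitophagy, was higher at every time. Its values were 1.25, 1.21 and 1.07 FPKM in TTP-/- cells, against 0.703, 0.666 and 0.646 FPKM in WT cells at 0 h and 0.622, 0.477 and 0.635 FPKM in TTP-/- cells, against 0.248, 0.259 and 0.277 FPKM in WT cells at 3 h. They were 0.441, 0.46 and 0.393 FPKM in TTP-/- cells and 0.21, 0.218 and 0.182 FPKM in WT cells at 6 h and 0.451, 0.677 and 0.488 FPKM in TTP-/- cells and 0.178, 0.295 and 0.273 FPKM in WT cells at 9 h. No library of one genotype reached the range of the other, and the log2 changes ran from 0.72 to 0.90. Under quantile normalization the 6 h call of Bnip3 was narrowly lost (log2 change 0.51, adjusted p = 0.0507). Ndrg1, a stress-responsive gene that low oxygen induces, went the other way. It was at 1.65, 1.86 and 2.34 FPKM in TTP-/- cells, against 4.9, 5.28 and 5.36 FPKM in WT cells at 0 h, and at 6.4, 7.34 and 6.37 FPKM in TTP-/- cells, against 11.6, 11.9 and 11.6 FPKM in WT cells at 3 h. At 6 h it was at 9.37, 9.37 and 8.98 FPKM in TTP-/- cells and 13, 16.4 and 14.8 FPKM in WT cells, and at 9 h at 8.26, 7.67 and 8.04 FPKM in TTP-/- cells and 15.2, 17.1 and 13.7 FPKM in WT cells. Every TTP-/- library was below every WT library at the same time, with log2 changes of -1.38, -0.80, -0.66 and -0.93. At 6 h the Ndrg1 call was lost without TTP-/- replicate 2 or 3 (adjusted p = 0.0548 and 0.0506).

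Vegfa and Adm encode secreted factors that act on blood vessels, and both were lower in TTP-/- cells before LPS. Vegfa was then at 0.827, 0.676 and 0.871 FPKM in TTP-/- cells, against 1.33, 1.3 and 1.31 FPKM in WT cells (log2 change -0.67 ± 0.12, adjusted p = 0.00686). At 3 h it was higher instead, at 0.969, 1.03 and 0.995 FPKM in TTP-/- cells, against 0.664, 0.575 and 0.572 FPKM in WT cells (log2 change 0.64 ± 0.09, adjusted p = 0.00342). It was also higher at 9 h, at 2.75, 3.69 and 3.02 FPKM in TTP-/- cells, against 1.98, 1.61 and 2.05 FPKM in WT cells (log2 change 0.71 ± 0.14, adjusted p = 0.00658). The genotypes did not overlap at any time, with TTP-/- cells below WT cells at 0 h and above them after LPS, although the 6 h difference did not pass without the replicate block (log2 change 0.30 ± 0.11, adjusted p = 0.119 without it; adjusted p = 0.0394 with it). Adm rested on few reads, 5, 7 and 16 reads in TTP-/- cells, against 46, 54 and 39 reads in WT cells at 0 h. Its FPKM there were 0.0906, 0.133 and 0.282 FPKM in TTP-/- cells and 0.869, 1.04 and 0.836 FPKM in WT cells, and no TTP-/- library came near the WT range (log2 change -1.98 ± 0.26, adjusted p = 0.00194). At 3, 6 and 9 h it did not pass. P4ha1, a collagen prolyl hydroxylase, passed at 9 h alone, at 0.814, 1.06 and 0.745 FPKM in TTP-/- cells, against 0.554, 0.631 and 0.611 FPKM in WT cells (log2 change 0.47 ± 0.13, adjusted p = 0.0318), and was lost without any of 5 single libraries, TTP-/- replicate 3 being the exception. Quantile normalization and testing without the FPKM minimum also ended the P4ha1 call (adjusted p = 0.0548 and 0.0704).

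The exact permutation test of 3 libraries against 3 cannot go below a p of 0.1 (two-sided), and every non-overlapping pair of groups above is at that limit.

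The deposited lengths mostly span the whole gene, introns included, which lowers the FPKM of genes with long introns: Hk1, below the minimum, had a mean of 810.3 reads. The reads of the 10 members below it were tested with voom, limma's method for counts, on genes that averaged 10 reads or more. Across all 33 members voom called 20, 17, 15 and 20 higher and 4, 1, 1 and 2 lower in TTP-/- cells over the successive times. Of all genes it called 19.1%, 15.9%, 14.6% and 21% higher at 0, 3, 6 and 9 h, and 14.7%, 15.4%, 8.45% and 17.8% lower. Of the 10, 3, namely Egln3, Slc2a3 and Slc16a1, were higher at all 4 times.

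Egln3, the prolyl hydroxylase that HIF-1 itself induces, had the largest difference of these 10 at 0 h and at 9 h. It was at 1.29, 1.42 and 1.34 FPKM in TTP-/- cells, against 0.259, 0.218 and 0.234 FPKM in WT cells at 0 h (voom log2 change 2.53 ± 0.14, adjusted p = 1.63e-05). At 3 h it was at 0.932, 0.891 and 0.893 FPKM in TTP-/- cells, against 0.355, 0.401 and 0.386 FPKM in WT cells, at 6 h at 0.406, 0.476 and 0.441 FPKM in TTP-/- cells and 0.114, 0.12 and 0.114 FPKM in WT cells and at 9 h at 0.301, 0.304 and 0.35 FPKM in TTP-/- cells and 0.0667, 0.0685 and 0.0489 FPKM in WT cells. The lowest TTP-/- library was at least 2 times the highest WT library at each time, and the log2 changes were 1.23, 1.91 and 2.37 after LPS. Slc2a3 encodes GLUT3, a transporter with high affinity for glucose. It was at 0.144, 0.14 and 0.22 FPKM in TTP-/- cells, against 0.095, 0.0688 and 0.0802 FPKM in WT cells at 0 h (voom log2 change 1.05 ± 0.22, adjusted p = 0.00582) and at 0.225, 0.308 and 0.244 FPKM in TTP-/- cells, against 0.0526, 0.0602 and 0.0524 FPKM in WT cells at 6 h (voom log2 change 2.21 ± 0.18, adjusted p = 7.47e-06), and its log2 changes at 3 and 9 h were 1.80 and 1.91. Its annotated span also holds Gm4482 on the same strand. Slc16a1 encodes MCT1, a transporter for lactate and pyruvate. It was at 1.11, 0.771 and 0.744 FPKM in TTP-/- cells, against 0.418, 0.353 and 0.358 FPKM in WT cells at 0 h and at 0.132, 0.166 and 0.139 FPKM in TTP-/- cells, against 0.0317, 0.0344 and 0.0473 FPKM in WT cells at 9 h (voom log2 change 1.22 and 1.91). Its 3 h call (voom log2 change 1.13 ± 0.27, adjusted p = 0.012) was lost without WT replicate 2 or TTP-/- replicate 1 (adjusted p = 0.0672 and 0.0529), and all other calls of these 3 genes held without any 1 library.

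Of the remaining 7, Pfkfb4, a relative of Pfkfb3, was higher at 0, 3 and 9 h (voom log2 change 1.22, 0.76 and 0.86) in all fits with 1 library left out. Hk1, the housekeeping hexokinase, was higher at 0, 6 and 9 h (0.56, 0.63 and 0.71). Without WT replicate 1, WT replicate 3 or TTP-/- replicate 1 the 0 h call of Hk1 was lost, and without TTP-/- replicate 2 or 3 its 6 h call. Pfkl, the liver-type subunit, was higher at 9 h (0.66 ± 0.13, adjusted p = 0.000893). The muscle-type subunit Pfkm was higher at 0, 3 and 6 h (0.98, 1.21 and 2.05), but had a mean of 19.96 reads and shares its span with Senp1 on the same strand. Its calls at 0 h and 6 h failed in 3 and 1 of the 6 fits with 1 library left out. Pdk1, a pyruvate dehydrogenase kinase, passed at 0 h (0.44 ± 0.15, adjusted p = 0.048) and in only 1 of 6 such fits, the one without TTP-/- replicate 3. The collagen hydroxylase P4ha2 was lower at 9 h (-0.79 ± 0.23, adjusted p = 0.0165, lost without TTP-/- replicate 1), and Ankrd37, a hypoxia-induced gene with a mean of 15.3 reads, passed nowhere.

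**Figure D3:**
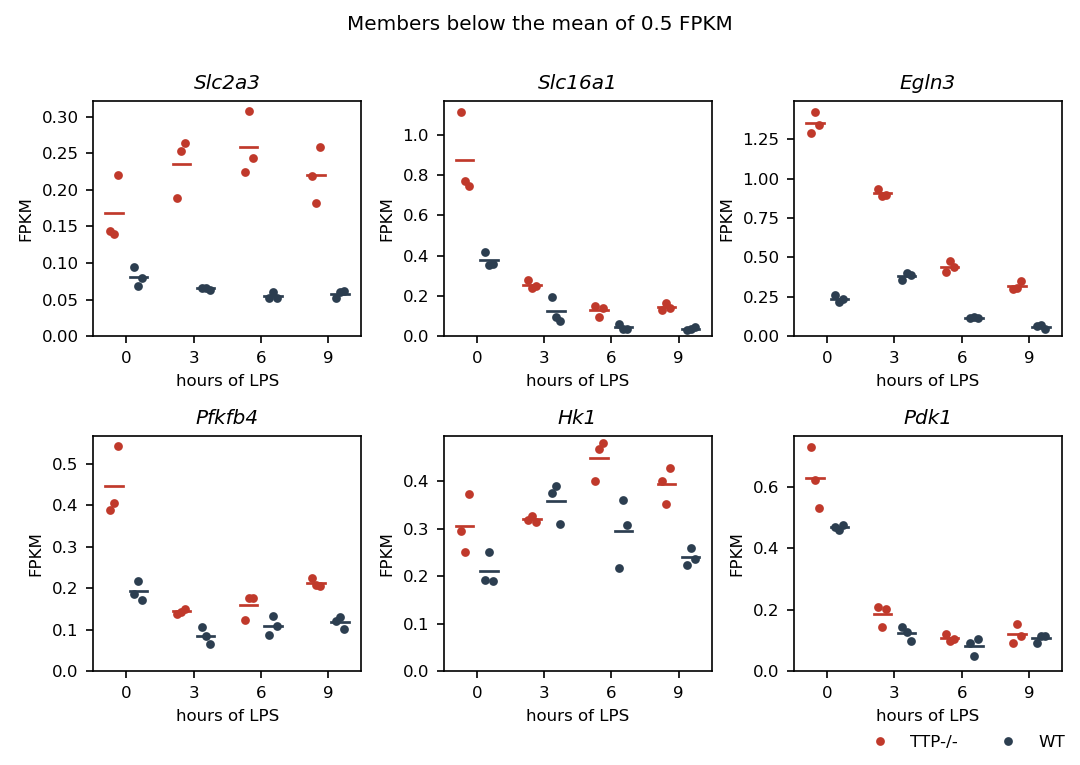
FPKM (y axis, from 0) in each library (points) with group means (lines) for 6 of the 10 members below the mean of 0.5 FPKM, at 0, 3, 6 and 9 h after LPS (x axis), TTP-/- cells in red and left, WT cells in dark blue and right. The 3 libraries of each genotype do not overlap for Egln3, Slc2a3 and Slc16a1 at any time, and each time is scaled separately.

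Reads per kilobase of exon, scaled to the library total, place the isoforms side by side. Before LPS, Slc2a1 stood at 38.6 ± 4.8 in TTP-/- cells and 15.6 ± 3.0 in WT cells (SD, n = 3 each), far above Slc2a3 at 1.80 ± 0.52 and 0.799 ± 0.12. The 3 hexokinases in TTP-/- cells were at 4.93 ± 0.45 for Hk2, 4.20 ± 0.92 for Hk1 and 3.60 ± 0.85 for Hk3. In WT cells they were at 2.09 ± 0.44 for Hk2, 2.65 ± 0.49 for Hk1 and 1.09 ± 0.33 for Hk3. Egln3 was at 13.3 ± 0.60 in TTP-/- cells against 2.14 ± 0.16 in WT cells, whereas Egln1 was at 11.3 ± 0.50 against 9.75 ± 0.53.

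The genotype difference changed with LPS for 5 of the 23 members. Of these, Hk3 was tested only because of its level in TTP-/- libraries, and Adm only because of its level in WT libraries. The log2 difference at 3, 6 or 9 h minus that at 0 h was tested in 1 fit of the 24 libraries, and passed for 4, 3 and 3 members, all upward, where 4.99%, 8.34% and 9.78% of all genes passed in either direction. Vegfa passed at all 3 times (1.32 ± 0.15, adjusted p = 3.89e-05 at 3 h; 0.97 ± 0.15, adjusted p = 0.000471 at 6 h; 1.38 ± 0.15, adjusted p = 1.19e-05 at 9 h), and did so in every fit with 1 library left out. Pfkfb3 passed at 3 h (0.80 ± 0.17, adjusted p = 0.00668) and 6 h (0.56 ± 0.17, adjusted p = 0.0419), Ndrg1 at 3 h (0.58 ± 0.16, adjusted p = 0.033) and 6 h (0.72 ± 0.16, adjusted p = 0.00561). Adm passed at 3 h (1.59 ± 0.41, adjusted p = 0.0285) and 9 h (1.66 ± 0.41, adjusted p = 0.0142), and Hk3 at 9 h (1.20 ± 0.33, adjusted p = 0.0251). For Ndrg1 and Adm the positive value means a deficit that was smaller after LPS, for Hk3 an excess that was larger.

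Several of these differences of differences were near the threshold. At 3 h, Ndrg1 and Adm were each lost without any 1 of 9 libraries (adjusted p 0.052 to 0.11 for Ndrg1 and 0.0505 to 0.0967 for Adm), 7 of which ended both calls. The 6 h call of Pfkfb3 was lost without any 1 of 8 libraries, with adjusted p from 0.0739 to 0.132, and the Hk3 call at 9 h without any 1 of 6, from 0.0523 to 0.0683. Other processing ended some of these calls. Quantile normalization left Adm at 1.26 at 3 h (adjusted p = 0.151) and 1.04 at 9 h (adjusted p = 0.191). With voom, Pfkfb3 at 6 h was at 0.54 (adjusted p = 0.0529). Values rescaled to TPM did not call Ndrg1 or Adm at 3 h (adjusted p = 0.0894 and 0.0558), Pfkfb3 at 6 h (0.105) or Hk3 at 9 h (0.0628). A pseudocount of 1 ended the 3 h call of Ndrg1 (adjusted p = 0.129), and one of 0.01 the 9 h call of Hk3 (adjusted p = 0.0683). Without TTP-/- 0 h replicate 3 the 9 h count was 5. Of the members below the minimum, voom gave a smaller excess after LPS for Egln3 at 3 h (-1.30, adjusted p = 8.11e-06) and 6 h (-0.62, adjusted p = 0.0229), and a larger one for Slc2a3 at 6 h (1.17, adjusted p = 0.010).

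**Figure D4:**
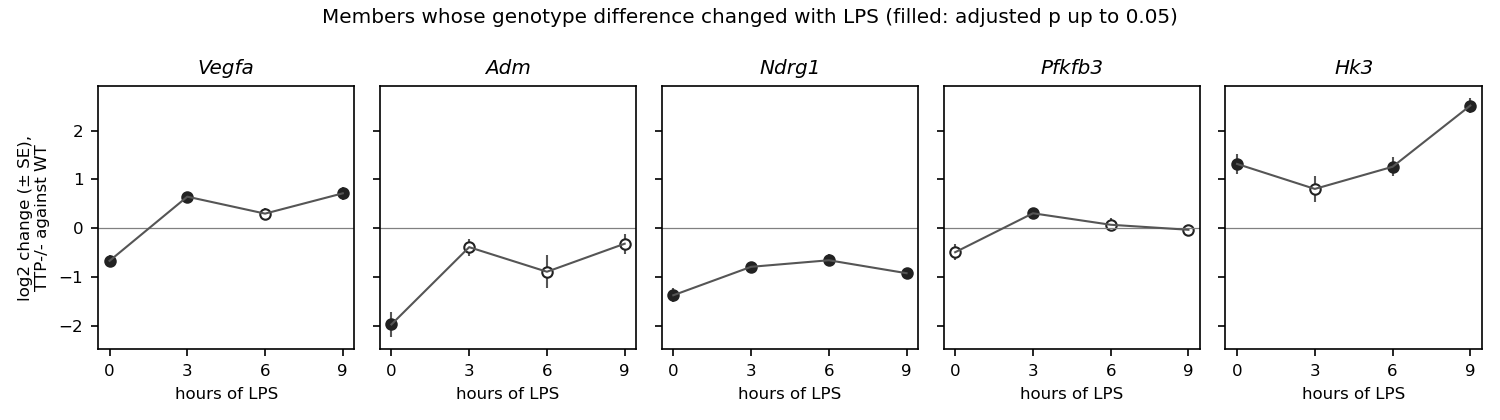
Log2 change of TTP-/- against WT cells (y axis, ± SE) at 0, 3, 6 and 9 h after LPS (x axis) for the 5 members whose difference changed with LPS; filled points passed the threshold at that time. Vegfa lies below 0 at 0 h and above 0 after LPS, Ndrg1 stays below 0 throughout, and Hk3 is highest at 9 h.

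The response to LPS within each genotype was tested on a scale common to the 24 libraries, because the deposited tables scale each time on its own. The choice of scale matters here. Size factors over all 24 libraries put the median of all genes at 0.08 to 0.11 above 0 h on the log2 scale, and library totals at -0.33 to -0.45. By size factors, 12, 14 and 15 of the 23 members passed in TTP-/- cells at 3, 6 and 9 h against 0 h, and 11, 13 and 14 in WT cells. Of all genes, 54.1%, 60.2% and 61.7% passed in TTP-/- cells and 52.9%, 56.3% and 57.8% in WT cells. A direction is given below only where both scalings passed with the same sign.

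Under both scalings, 6, 7 and 6 members were higher and 5, 6 and 4 lower in TTP-/- cells at 3, 6 and 9 h than at 0 h. In WT cells the counts were 3, 6 and 5 higher and 5, 6 and 6 lower. Of all genes, 16.4%, 17.1% and 16.3% were higher and 22.4%, 24.6% and 24.5% lower in TTP-/- cells. In WT cells these shares were 14.7%, 14% and 12.8% higher and 19.6%, 21.6% and 22% lower. Hk2 and Ndrg1 were higher, and Aldoc, Ldha, Egln1 and Bnip3 lower, at all 3 times in both genotypes.

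Ndrg1 rose in both genotypes. On the common scale it was at 10.5, 10.4 and 10.1 FPKM at 6 h against 1.26, 1.41 and 1.79 FPKM at 0 h in TTP-/- cells, and at 14.4, 18.6 and 16.7 FPKM against 3.67, 3.96 and 4.04 FPKM in WT cells. The log2 change at 6 h was 2.73 ± 0.11 in TTP-/- cells and 2.05 ± 0.11 in WT cells by size factors, and 2.21 and 1.46 by library totals. In TTP-/- cells Hk2 stood at 1.0, 1.18 and 0.99 FPKM at 9 h, against 0.471, 0.393 and 0.434 FPKM at 0 h. In WT cells it stood at 0.502, 0.638 and 0.506 FPKM at 9 h, against 0.226, 0.209 and 0.152 FPKM at 0 h. Every 3 and 9 h library lay above the 0 h range of its genotype, with log2 changes at 3 h of 0.94 ± 0.12 in TTP-/- cells and 1.37 ± 0.12 in WT cells. Whether the genotypes differ in this rise is the test of the interaction, which Hk2 did not pass at any time.

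Gapdh rose in WT cells at all 3 times, to 3.3, 3.14 and 2.61 FPKM at 3 h and 2.82, 2.51 and 2.57 FPKM at 9 h, against 1.34, 1.42 and 0.938 FPKM at 0 h. In TTP-/- cells its log2 change was 0.83, 0.90 and 0.85 by size factors, the last of which library totals did not call (0.33). P4ha1 rose at 6 h in both genotypes, in WT cells to 0.978, 0.80 and 0.824 FPKM against 0.366, 0.359 and 0.359 FPKM at 0 h. Pfkfb3 rose in TTP-/- cells at all 3 times (log2 change 1.22, 1.44 and 1.20 by size factors). In WT cells both scalings called it at 6 h only, and at 3 h they disagreed in sign (0.47 by size factors and -0.01 by library totals). Pfkp rose at 6 and 9 h in both genotypes, by 1.23 in TTP-/- cells and 0.99 in WT cells at 9 h.

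Vegfa moved in opposite directions at 3 h. It was at 0.993, 1.06 and 1.02 FPKM at 3 h against 0.63, 0.513 and 0.668 FPKM at 0 h in TTP-/- cells, and at 0.688, 0.604 and 0.598 FPKM against 0.994, 0.976 and 0.989 FPKM in WT cells, on the common scale. By 9 h it was at 3.04, 4.1 and 3.34 FPKM in TTP-/- cells and 2.21, 1.79 and 2.28 FPKM in WT cells, above 0 h in both. The log2 change at 9 h was 2.35 ± 0.11 in TTP-/- cells and 1.01 ± 0.11 in WT cells by size factors. Adm rose in TTP-/- cells at 3 h, to 1.09, 1.17 and 0.708 FPKM against 0.0691, 0.101 and 0.217 FPKM at 0 h (log2 change 2.27 ± 0.29). In WT cells it was lower at 9 h, at 0.348, 0.401 and 0.362 FPKM against 0.651, 0.781 and 0.629 FPKM, a call lost by size factors without any 1 of the 6 libraries (adjusted p 0.056 to 0.0953). Hk3 was higher at 9 h in TTP-/- cells, at 2.35, 2.78 and 1.92 FPKM against 0.565, 0.523 and 0.784 FPKM at 0 h, and passed under both scalings at no time in WT cells.

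Aldoc, Ldha, Egln1 and Bnip3 fell in both genotypes. Ldha was at 7.3, 8.51 and 9.35 FPKM at 6 h against 15, 12.7 and 12.6 FPKM at 0 h in TTP-/- cells, and at 4.91, 5.3 and 5.3 FPKM against 8.83, 9.12 and 9.02 FPKM in WT cells. Aldoc was at 1.03, 1.11 and 1.31 FPKM at 6 h against 3.43, 2.3 and 2.99 FPKM at 0 h in TTP-/- cells, and at 0.376, 0.557 and 0.621 FPKM against 1.26, 1.65 and 1.06 FPKM in WT cells. No 6 h library of either gene reached the 0 h range of its genotype. The log2 changes of Bnip3 were -0.53, -0.77 and -0.53 in TTP-/- cells and -0.70, -0.88 and -0.70 in WT cells. In WT cells at 6 h, Bnip3 was at 0.233, 0.247 and 0.205 FPKM against 0.527, 0.50 and 0.486 FPKM at 0 h. The log2 change of Egln1 at 9 h was -0.71 in TTP-/- cells and -0.36 in WT cells. Eno1 was lower at 6 h in both genotypes, at 3.3, 4.12 and 4.3 FPKM against 5.71, 7.33 and 5.24 FPKM at 0 h in WT cells. The Aldoc call at 3 h in WT cells was lost without WT 3 h replicate 2 or 3 or WT 0 h replicate 2 (adjusted p 0.0765 to 0.134). In TTP-/- cells the Eno1 call was lost by size factors without TTP-/- 6 h replicate 1 or TTP-/- 0 h replicate 1 or 3 (adjusted p 0.0519 to 0.0916), and Slc2a1, lower at 3 and 6 h in TTP-/- cells and at 6 and 9 h in WT cells, lost its 3 h call in TTP-/- cells without any 1 of 5 libraries and its WT calls without any 1 of 3.

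**Figure D5:**
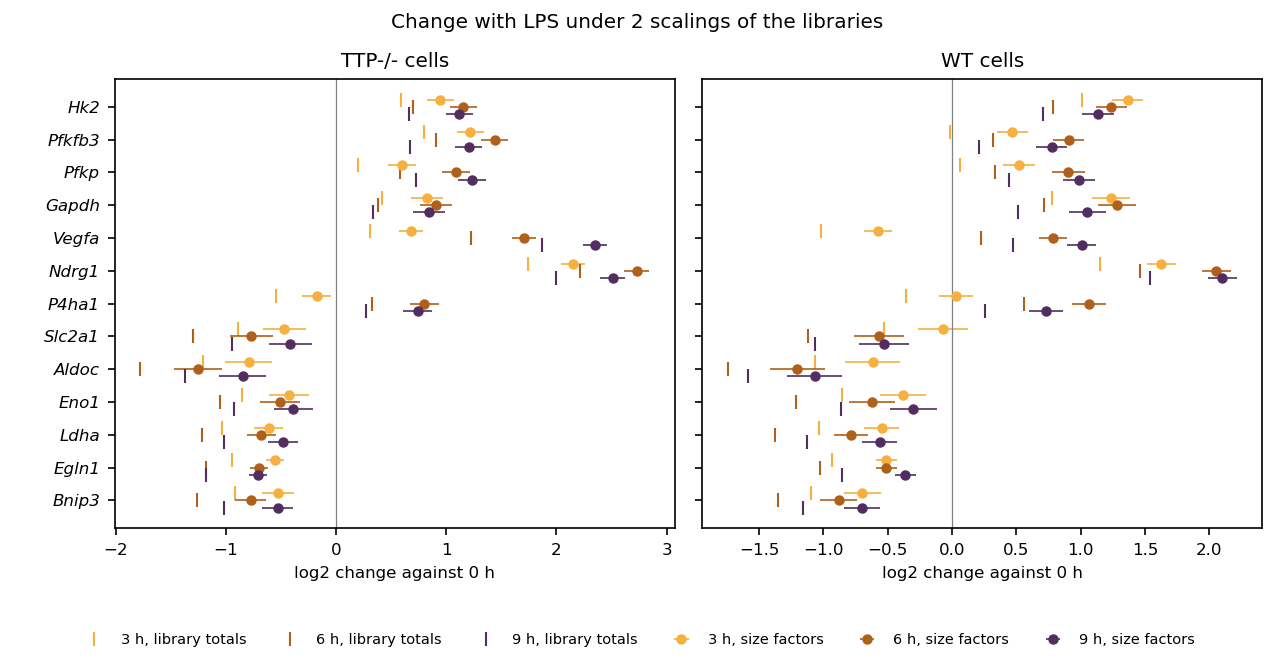
Log2 change at 3, 6 and 9 h of LPS against 0 h (x axis) in TTP-/- cells (left) and WT cells (right) for 13 members (y axis), with circles and bars for size factors (± SE) and upright ticks for library totals. Hk2, Gapdh and Ndrg1 lie right of 0 under both scalings, Aldoc, Ldha, Egln1 and Bnip3 lie left of it, and Vegfa at 3 h lies left of 0 in WT cells alone.

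Among the members below the minimum, both scalings of voom put the kinase Pdk1 and the transporter Slc16a1 lower at every time in both genotypes. Slc16a1 was at 0.146, 0.185 and 0.154 FPKM at 9 h against 0.847, 0.585 and 0.571 FPKM at 0 h in TTP-/- cells, and at 0.0354, 0.0382 and 0.0527 FPKM against 0.314, 0.265 and 0.269 FPKM in WT cells. Pdk1 was at 0.136, 0.11 and 0.116 FPKM at 6 h against 0.558, 0.474 and 0.408 FPKM at 0 h in TTP-/- cells, and at 0.101, 0.0577 and 0.118 FPKM against 0.353, 0.344 and 0.358 FPKM in WT cells. No library after LPS reached the 0 h range, the voom log2 change being -2.03 in TTP-/- cells and -2.73 in WT cells for Slc16a1, and -1.98 in TTP-/- cells and -1.98 in WT cells for Pdk1. Egln3 was higher at 3 h in WT cells (1.16) and lower at 6 and 9 h in both genotypes. Slc2a3 was higher at all 3 times in TTP-/- cells (0.93, 1.19 and 0.95) and passed under both scalings at no time in WT cells.

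In all, both scalings of voom put 8, 10 and 9 of the 33 members higher and 10, 13 and 9 lower in TTP-/- cells at 3, 6 and 9 h than at 0 h, and 6, 8 and 6 higher and 8, 10 and 10 lower in WT cells. Of all genes, 14.5%, 15.2% and 13.8% were higher and 28.7%, 31.3% and 30.7% lower in TTP-/- cells. In WT cells 12.5%, 11.9% and 10.4% of all genes were higher and 26%, 28.3% and 29.1% lower.

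Genes next to the members in these pathways gave a mixed picture, beside the 13.9%, 11.3%, 10.4% and 17.7% of all genes that were higher and the 15.5%, 14.6%, 6.7% and 19.1% that were lower over the successive times. The lists are small, and nothing particular to them is read from these counts. Of 18 tested hypoxia-response genes that are not members, 6, 10, 8 and 10 were higher and 3, 1, 0 and 2 lower in TTP-/- cells at 0, 3, 6 and 9 h. Among them Hmox1, which degrades haem, was higher at all 4 times, with log2 changes of 1.55, 1.52, 1.89 and 3.28. Hilpda, which promotes lipid droplets, changed by 1.37, 2.00 and 1.97 at 3, 6 and 9 h. Of 13 other glycolysis and pyruvate genes, 2, 2, 2 and 4 were higher and 2, 1, 0 and 1 lower. Of 6 pentose phosphate genes, 2, 1, 1 and 2 were higher and 0, 1, 0 and 1 lower. Of 14 citric acid cycle genes, 4, 1, 0 and 1 were higher and 0, 0, 0 and 3 lower. Of 8 HIF subunits and regulators outside the members, 1, 0, 0 and 0 were higher and 1, 1, 1 and 2 lower, and Vhl, which marks hydroxylated HIF-1α for destruction, was lower at 3, 6 and 9 h (log2 change -0.57, -0.60 and -0.58) and at 0 h (-0.95). Of 4 glycogen and gluconeogenesis genes, 1, 1, 1 and 2 were higher and 0, 1, 0 and 0 lower, and the phosphorylase Pygl was higher at all 4 times, by 1.11 to 2.00 on the log2 scale. Pygl and Hmox1 are also expressed by neutrophils and macrophages, whose markers moved with genotype as given above.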

How the data were processed

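RNA from TTP-/- and WT BMDCs was sequenced in 24 libraries with a SENSE mRNA-Seq kit. Per the labels and the study's methods, reads were trimmed with cutadapt, inspected with FastQC and aligned to GRCm38 (mm10) with STAR 2.5, and the authors used DESeq2. The deposited FPKM values are read counts divided by a size factor and by gene length, set by the authors within each time's 6 libraries. The deposited baseMean, a normalised signal, is the authors' mean over those libraries and served only to recover reads. The authors' fold changes and p-values, also in the tables, were not used. The tables named 16878 genes, and GENCODE M21 named 6261 more.

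Whole reads were recovered from the FPKM for all values (tolerance 0.05), giving 19966708 to 25553546 reads per library. Genotypes were compared with limma 3.58.1 (R 4.3.3, trend) on log2(FPKM + 0.1), separately at each time, for genes with a mean of 0.5 FPKM or more, with Benjamini-Hochberg adjustment over all of them and a threshold of 0.05. Fold changes on this scale understate those of low genes. LPS contrasts and interactions each used 1 fit of 24 libraries. voom was run on recovered reads for genes averaging 10 or more. At 6 h, all 3 correlations of same-numbered libraries exceeded 0.1, so a fit that pairs libraries by replicate number is given beside the main test there. The main test used no pairing at any time, and 6 h results are from it unless the block is named. The labels give no such pairing. Scripts were tested on simulated data.

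The members and all gene lists were chosen with earlier results of these data known. Values in every library are given for members past the threshold at 2 or more times, the 3 largest changes in each direction at each time, the 4 largest of the WT LPS contrasts, Hif1a and Zfp36. Describing the members below the minimum with voom, and requiring both scalings for LPS, were choices made after the values were seen. Alternatives were other pseudocounts, filters, scalings and tools, a replicate block, and leaving out each library. Strand use in counting was not given in the sources used here.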

Additional observations from a re-analysis of the deposited data

Results flagged for a closer look

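Each value here is the log2 change of TTP-/- against WT cells at an LPS time minus that at 0 h, and stands out because the interaction in limma's fit of 24 libraries passed. At 3 h it was 0.80 for Pfkfb3, 1.32 for Vegfa, 0.58 for Ndrg1 and 1.59 for Adm. At 6 h it was 0.56 for Pfkfb3, 0.97 for Vegfa and 0.72 for Ndrg1. At 9 h it was 1.20 for Hk3, 1.38 for Vegfa and 1.66 for Adm. The comparisons share the 0 h libraries, and Adm had as few as 5 reads in a library. Hk3 entered the test only through its level in TTP-/- libraries, and Adm only through its level in WT libraries.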

How the results depend on the processing

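Of the counts of members past the threshold, those of genotype at 0, 3, 6 and 9 h were 13, 9, 10 and 15. With a mean of 5 FPKM required, 0 h gave 7, 6 h gave 5 and 9 h gave 6. With voom, which tests 33 members in place of 23, 0 h gave 24, 3 h gave 18 and 6 h gave 16, and 3 h without WT replicate 1, added after seeing the data, gave 23. Leaving out 1 library gave 8 to 14 at 0 h, 3 to 15 at 3 h, 7 to 11 at 6 h and 13 to 15 at 9 h. With the replicate block, the count was 8 at 0 h and 3 at 3 h, where correlations of same-numbered libraries did not all exceed 0.1. The block changed no other count of members by over 1.5 times.

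For LPS in TTP-/- cells, a mean of 5 FPKM gave 4 members at each time, voom gave 20, 24 and 24 at 3, 6 and 9 h, and no filter gave 23 at 6 h and 23 at 9 h. In WT cells the 5 FPKM minimum gave 3, 4 and 4, and at 3 h no filter and voom each gave 17. For the interactions, the 5 FPKM minimum gave 2 at 3 h and 0 at 9 h, where the main test called 4 and 3 and Vegfa, Adm and Hk3 are too low to be tested, TPM gave 2 at 3 h, and no filter gave 6 at 6 h. Leaving out 1 library gave 2 to 4 at 3 h and 2 to 5 at 9 h. The sign changed for Aldoa at 9 h against 0 h, to -0.080 (quantile) and -0.11 (library totals) in TTP-/- cells and -0.10 (library totals) in WT cells, and for Pfkfb3 at 3 h in WT cells (-0.014, library totals). The minimum and the wider voom set change which members are tested. For the other changes the cause was not tested. Low reads limit Adm, Pfkm, P4ha2 and Ankrd37 most.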
